A study of Mus musculus with 2 samples.

Results

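The proteasome subunit genes are described here: every gene in the count files whose symbol is Psma, Psmb, Psmc or Psmd followed by a number, leaving out the immunoproteasome genes Psmb8, Psmb9 and Psmb10. The rule took 36 of 32285 genes. Of these, 16 encode the core particle (8 Psma and 8 Psmb genes) and 20 the regulatory particle (6 Psmc and 14 Psmd genes). Fibro-adipogenic progenitors (FAPs) are mesenchymal stromal cells of muscle, and neutrophils and monocytes are blood leukocytes that enter it after injury. Mononuclear cells came from the quadriceps of wild-type C57BL/6J mice, collected 9 h or 2 h after an intramuscular injection of barium chloride (BaCl2), a salt used to injure muscle, given as 100 µl of a 1.2% w/v solution. The cells were cryo-preserved, thawed and loaded for droplet single-cell RNA sequencing with a target of 5000 cells. There was 1 library at 9 h and 1 at 2 h, uninjured muscle was not analysed here, and the labels used here state neither the age nor the number of the mice. Without replicates, the times could not be compared by a test over animals.

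The proteasome degrades proteins that carry a ubiquitin chain. Its core particle is a barrel of alpha and beta rings, with the proteolytic sites on the inner faces of the beta rings and the gate in the alpha rings. The regulatory particle caps the barrel: its lid and base hold ubiquitin receptors and a deubiquitinase, and a ring of ATPases unfolds the substrate and feeds it into the core. In skeletal muscle the ubiquitin proteasome system is best known for breaking down myofibrillar protein in atrophy, and in vertebrate cells a deficit in proteasome activity is known to raise transcription of the subunit genes as a set through the factor encoded by Nfe2l1.

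The 9 h library kept 8147 cells with 35127600 UMIs (unique molecules) and a median of 2327 per cell. The 2 h library kept 4900 cells with 27598413 UMIs and a median of 4519. Both libraries held 20 of the same barcodes. Cells fell into 20 clusters, and each class is called "like" a cell type because it rests on marker genes. The 6 classes with at least 100 cells in each library were compared: FAP-like (2363 cells at 9 h and 1984 at 2 h), neutrophil-like (4318 and 1632), endothelial-like (523 and 281), monocyte-like (367 and 173), resident macrophage-like (242 and 322) and dendritic-like cells (109 and 142). Every one of the 15 FAP markers and of the 12 neutrophil markers was detected in both FAP-like and neutrophil-like cells, at both times. Detection thus does not tell these classes apart. Levels are in CPM, the UMIs of a gene per 1000000 UMIs of the class, taken from 3′ counts that are not divided by transcript length. FAP markers summed to 26534 CPM at 9 h and 67188 CPM at 2 h in FAP-like cells. In neutrophil-like cells they summed to 320 CPM at 9 h and 862 CPM at 2 h. Neutrophil markers summed to 114483 CPM at 9 h and 148622 CPM at 2 h in neutrophil-like cells. In FAP-like cells they summed to 2224 CPM at 9 h and 1567 CPM at 2 h. All intervals are 95% intervals of the counting error alone.

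The summed proteasome genes were higher at 9 h in FAP-like, resident macrophage-like, endothelial-like and dendritic-like cells, and near their 2 h level in monocyte-like and neutrophil-like cells. The FAP-like sum was 5197 CPM at 9 h (exact Poisson interval 5165 to 5229) and 2545 CPM at 2 h (2519.9 to 2570), which is a ratio of 2.04 (exact conditional binomial interval 2.02 to 2.07). Resident macrophage-like cells had 4475 CPM at 9 h and 2704 CPM at 2 h, a ratio of 1.66 (1.60 to 1.71). The 2 intervals of the ratios did not overlap, so the FAP-like ratio was the higher beyond counting error.

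Endothelial-like cells had 3367 CPM at 9 h and 2411 CPM at 2 h (ratio 1.40, 1.33 to 1.46), and dendritic-like cells 4185 CPM at 9 h and 3362 CPM at 2 h (ratio 1.24, 1.19 to 1.30). Monocyte-like cells had 3647 CPM at 9 h and 3528 CPM at 2 h (ratio 1.03, 0.997 to 1.07). Neutrophil-like cells had 767 CPM at 9 h and 779 CPM at 2 h (ratio 0.985, 0.941 to 1.03). The intervals of the last 2 classes held 1. Neutrophils are short-lived granulocytes that enter injured muscle early, and monocytes follow them from the blood.

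**Figure D1:**
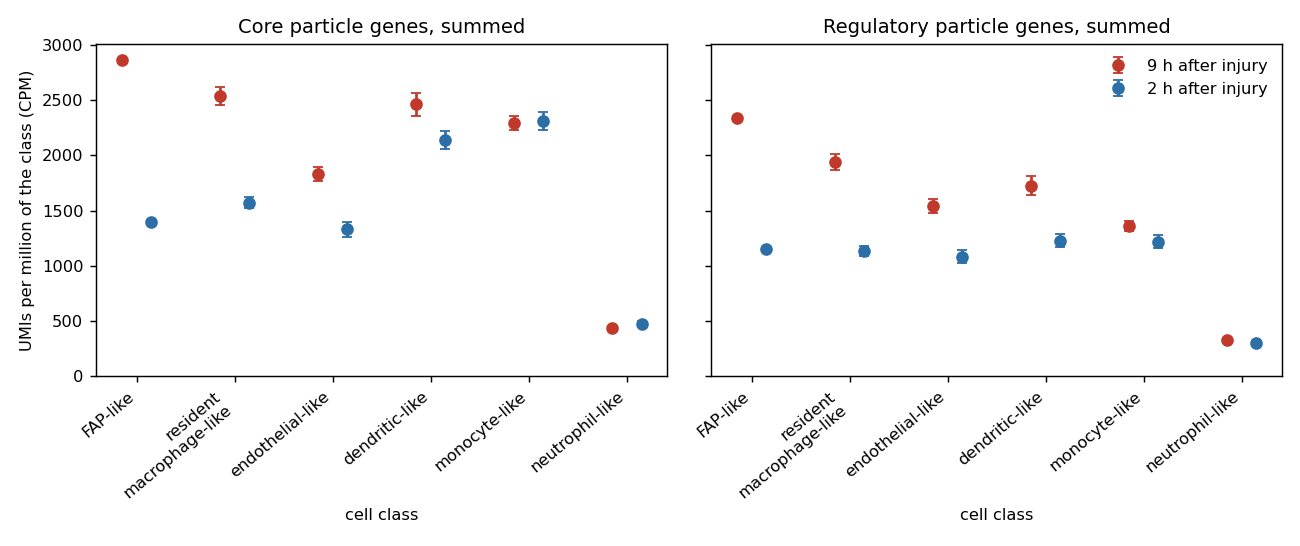
Summed level (CPM) of the core particle genes (left) and the regulatory particle genes (right) in the 6 compared cell classes, with 1 point per library and exact Poisson 95% intervals that are often smaller than the point. FAP-like cells stand at 2859 CPM at 9 h and 1392 CPM at 2 h for the core, and neutrophil-like cells are the lowest class in both panels.

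The order of the classes differed between the libraries. At 9 h FAP-like cells had the highest summed level, and the interval did not overlap that of the next class, the satellite-like cells (muscle stem cells; 4739 CPM, 69 cells). Satellite-like, tenocyte-like (4623 CPM, 62 cells) and resident macrophage-like cells followed, neighbours whose intervals overlapped. At 2 h the highest levels were those of monocyte-like and dendritic-like cells, whose intervals overlapped, and FAP-like cells were the fifth of 11 classes. Neutrophil-like cells were the lowest class in each library. Among classes too small to compare gene by gene, the summed level was 4739 CPM at 9 h and 2426 CPM at 2 h in satellite-like cells (ratio 1.95, 1.79 to 2.13), and 4623 CPM at 9 h and 2494 CPM at 2 h in tenocyte-like cells (ratio 1.85, 1.75 to 1.97). Pericyte-like or smooth muscle-like cells had 4107 CPM at 9 h and 2821 CPM at 2 h (ratio 1.46, 1.31 to 1.62), and T or NK-like cells 3012 CPM at 9 h and 2461 CPM at 2 h (ratio 1.22, 1.10 to 1.36).

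In FAP-like cells nearly every subunit gene was higher at 9 h. A gene was counted as measured with at least 100 UMIs over both libraries in the class, and as higher or lower with a CPM ratio of at least 1.5-fold in either direction. Of the 34 measured members 33 were higher at 9 h and 0 were lower, while 27.9% of all 10435 measured genes were higher and 30.2% lower. The members' median log2 ratio (with a pseudocount of 10 CPM) was 0.90, against 0.00 over all measured genes. The 2 members not measured were Psma8, an alpha subunit of the testis (8 UMIs in all kept cells), and Psmb11, the beta subunit of the thymus (2 UMIs). The core particle ratio was 2.05 (2.02 to 2.09) and the regulatory particle ratio 2.03 (1.99 to 2.06), and these intervals overlapped.

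All 7 measured alpha genes were higher in FAP-like cells, with a summed level of 1533 CPM at 9 h and 739 CPM at 2 h (ratio 2.07). Psma3, whose product helps to form the gate, had the highest level of any member, 407 CPM at 9 h and 239 CPM at 2 h (ratio 1.70). Psma6 had 175 CPM at 9 h and 64.7 CPM at 2 h (ratio 2.70, 2.52 to 2.90), and Psma5 139 CPM at 9 h and 51.4 CPM at 2 h (ratio 2.71, 2.50 to 2.93). Psma3 also had the lowest ratio of the ring, next to Psma1 (104 CPM at 9 h and 59.2 CPM at 2 h, ratio 1.76).

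The 7 measured beta genes were higher as well, at 1326 CPM at 9 h and 653 CPM at 2 h in sum (ratio 2.03). Psmb5, which carries the chymotrypsin-like site and is the target of proteasome inhibitor drugs, had 209.6 CPM at 9 h and 71.4 CPM at 2 h, a ratio of 2.94 (2.75 to 3.14). The other catalytic genes had lower ratios: Psmb7, with the trypsin-like site, was at 97.8 CPM at 9 h and 52.5 CPM at 2 h (ratio 1.86, 1.72 to 2.03), and Psmb6, with the caspase-like site, at 165 CPM at 9 h and 100.2 CPM at 2 h (ratio 1.65, 1.55 to 1.75). Their intervals did not overlap that of Psmb5. Psmb1, a structural subunit without a proteolytic site, had the lowest ratio of the core, with 171 CPM at 9 h and 114 CPM at 2 h (ratio 1.504, 1.42 to 1.59), which is at the 1.5-fold limit.

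Among the 6 ATPase genes, 5 were higher in FAP-like cells. Psmc4 had 101 CPM at 9 h and 38.7 CPM at 2 h (ratio 2.61, 2.38 to 2.86), and Psmc5 134 CPM at 9 h and 54.9 CPM at 2 h (ratio 2.44, 2.26 to 2.64). Psmc6 was the exception, with 154 CPM at 9 h and 107 CPM at 2 h, a ratio of 1.44 (1.35 to 1.53) whose interval was above 1 and reached the limit. Psmc3 had 109.5 CPM at 9 h and 70.6 CPM at 2 h (ratio 1.55). The ATPases form a ring of equal parts in the complex, and their mRNA ratios ran over a range of 1.44 to 2.61.

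All 14 non-ATPase genes were higher. Psmd14 encodes the deubiquitinase that removes the ubiquitin chain before the substrate enters the core. It had 144 CPM at 9 h and 46.3 CPM at 2 h, a ratio of 3.12 (2.87 to 3.38), the highest of the 34 measured members. Psmd7, the partner of that enzyme in the lid, had 247 CPM at 9 h and 107 CPM at 2 h (ratio 2.32, 2.19 to 2.45), and was the most abundant regulatory gene of these cells at 9 h. Psmd4, a ubiquitin receptor, had 134 CPM at 9 h and 67.3 CPM at 2 h (ratio 1.98), and Psmd2, a scaffold of the base, 126 CPM at 9 h and 62.0 CPM at 2 h (ratio 2.03). Psmd5, Psmd9 and Psmd10 encode chaperones that help to assemble the base and leave the finished particle. These 3 had the lowest levels, with Psmd10 at 13.8 CPM at 9 h and 5.79 CPM at 2 h (ratio 2.39, 1.88 to 3.06), Psmd5 at 20.6 CPM at 9 h and 9.89 CPM at 2 h (ratio 2.08), and Psmd9 at 38.5 CPM at 9 h and 23.1 CPM at 2 h (ratio 1.66).

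**Figure D2:**
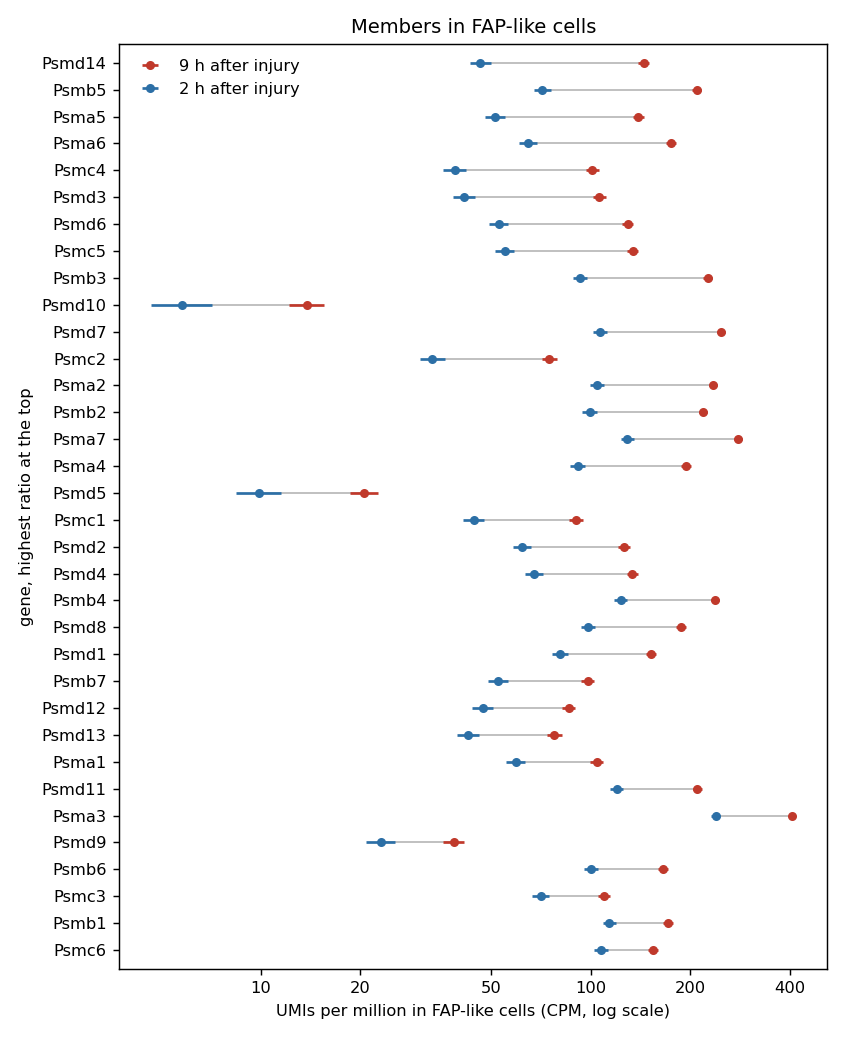
Level of each of the 34 measured members in FAP-like cells (CPM, log scale) at 9 h and at 2 h, with exact Poisson 95% intervals, ordered by the ratio with Psmd14 (3.12) at the top and Psmc6 (1.44) at the bottom. Every 9 h point lies to the right of its 2 h point, and the chaperone genes Psmd10, Psmd5 and Psmd9 lie at the low end of the axis.

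Nearly all FAP-like cells of the libraries lay in different clusters, so the ratio is also a ratio between clusters, which were formed without the proteasome genes. Cluster 1 (1537 cells at 9 h, led by Cxcl5, Ccl2 and Hmga2) had 5400 CPM, cluster 8 (563 cells, led by Saa1, Saa2 and Serpina3n) 4618 CPM and cluster 12 (213 cells, led by Krtdap, Dmkn and Sbsn, genes also known from stratified epithelium) 5296 CPM. The 2 h cells were in cluster 4 (1415 cells, led by Col15a1 and Angptl1) at 2487 CPM and cluster 7 (559 cells, led by Sema3c and Pi16) at 2681 CPM. Each 9 h cluster thus had a higher summed level than each 2 h cluster. Against all FAP-like cells at 2 h, the ratio was 2.12 in cluster 1, 1.81 in cluster 8 and 2.08 in cluster 12, and 34, 28 and 32 of the 34 measured members were higher, with 29.4%, 23.7% and 28.7% of all measured genes higher. Cluster 1 over cluster 8 gave a ratio of 1.17 (1.15 to 1.19) at 9 h, with 1 of 34 members higher by 1.5-fold, Psmd10, against 13.2% of all genes. Cluster 8 over cluster 12 gave 0.872 with 0 of 33 measured members higher (8.87% of all genes), cluster 1 over cluster 12 gave 1.02 with 0 of 34 (10.4%), and cluster 4 over cluster 7 at 2 h gave 0.928 with 0 of 33 (11.1%). None of the 15 FAP markers was among the 10 leading genes of clusters 1, 8 or 12, although all 15 were detected in each.

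The median FAP-like cell had 8229 UMIs at 9 h, against 7948.5 UMIs at 2 h. The median mitochondrial share was 2.91% at 9 h, against 3.91% at 2 h. In the FAP-like cells the 12 neutrophil markers, all detected at both times, summed to 2224 CPM at 9 h and 1567 CPM at 2 h. The 15 FAP markers summed to 26534 CPM at 9 h and 67188 CPM at 2 h in FAP-like cells. The part of these markers in the result was not tested.

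At equal depth the shift was seen across the FAP-like cells rather than in a few. With each cell thinned to 1000 UMIs, FAP-like cells held 4.91 ± 2.51 proteasome UMIs at 9 h (SD over 2311 cells) and 2.46 ± 1.69 at 2 h (1961 cells). The tenth percentile was 2 UMIs at 9 h, against 0 at 2 h, and the ninetieth was 8 at 9 h, against 5 at 2 h. Cells with any proteasome UMI were 98.4% at 9 h (97.8 to 98.9%, exact Clopper-Pearson) and 89.5% at 2 h (88.1 to 90.9%), and unthinned 99.6% at 9 h and 99.2% at 2 h. Cells with fewer than 1000 UMIs were left out, 52 at 9 h and 23 at 2 h. Resident macrophage-like cells had thinned means of 4.43 ± 2.35 UMIs at 9 h (235 cells) and 2.46 ± 1.81 UMIs at 2 h (315 cells), and neutrophil-like cells 0.773 ± 0.927 UMIs at 9 h (3994 cells) and 0.778 ± 0.925 UMIs at 2 h (1538 cells). Neutrophil-like cells with any proteasome UMI were 51.8% at 9 h and 52.5% at 2 h. No class lacks these genes, so the level that free RNA brings could not be read from one.

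**Figure D3:**
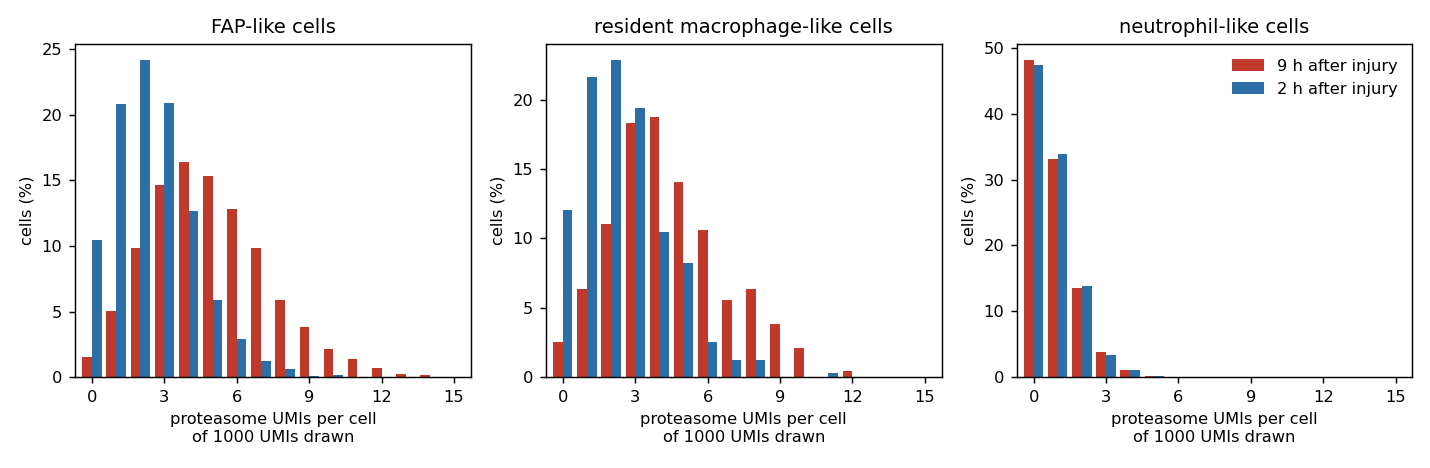
Share of cells (%) by their number of proteasome UMIs after each cell was thinned to 1000 UMIs, at 9 h and at 2 h, in FAP-like, resident macrophage-like and neutrophil-like cells. The 9 h bars lie to the right of the 2 h bars in FAP-like cells (means 4.91 and 2.46) and in resident macrophage-like cells (4.43 and 2.46), and coincide in neutrophil-like cells (0.773 and 0.778).

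Resident macrophage-like cells had 21 of 31 measured members higher at 9 h and 0 lower, while 16.6% of all measured genes were higher and 18.8% lower. The median log2 ratio of the members was 0.62, against 0.02 over all measured genes. Psmd14 had 144 CPM at 9 h and 53.9 CPM at 2 h (ratio 2.67, 2.14 to 3.36), Psmd6, a lid subunit, 116 CPM at 9 h and 43.8 CPM at 2 h (ratio 2.66, 2.07 to 3.43), and Psmb5 158 CPM at 9 h and 66.1 CPM at 2 h (ratio 2.38, 1.94 to 2.94). Psmd14 and Psmb5 thus had high ratios here as in FAP-like cells. The lowest ratios were those of Psmc3 (98.2 CPM at 9 h and 80.6 CPM at 2 h, ratio 1.22), Psmd8 (176 CPM at 9 h and 142 CPM at 2 h, ratio 1.23) and Psmb1 (158 CPM at 9 h and 118 CPM at 2 h, ratio 1.34). All of these cells lay in cluster 9 at both times, so this ratio was taken within a cluster, whose make-up at the 2 times was not compared. Resident macrophage markers in the class summed to 8780 CPM at 9 h and 12164 CPM at 2 h. FAP markers in the class summed to 1219 CPM at 9 h and 6066 CPM at 2 h, and dendritic markers to 22060 CPM at 9 h and 33894 CPM at 2 h. Platelet markers, of which 2 of 5 were detected, summed to 1719 CPM at 9 h and 39.0 CPM at 2 h. One of the listed platelet markers, Ppbp, was also a leading gene of cluster 9. The part of these markers in the result was not tested.

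Endothelial-like cells had 13 of 31 measured members higher and 0 lower, beside 19.5% of all measured genes higher and 19.5% lower, with a median log2 ratio of 0.46 for the members and 0.05 for all genes. Psmb5 had 118 CPM at 9 h and 47.6 CPM at 2 h (ratio 2.47, 1.81 to 3.42), Psma5 81.1 CPM at 9 h and 31.4 CPM at 2 h (ratio 2.58, 1.76 to 3.87), and Psmc5 96.2 CPM at 9 h and 47.6 CPM at 2 h (ratio 2.02, 1.47 to 2.82). All 6 ATPase genes had ratios above 1, and their sum was 524 CPM at 9 h and 344 CPM at 2 h (ratio 1.52). Psmd12, a lid subunit, was at 59.1 CPM at 9 h and 72.8 CPM at 2 h, a ratio of 0.813 whose interval held 1 (0.597 to 1.11). Psmb7, at 73.0 CPM at 9 h and 73.7 CPM at 2 h (ratio 0.991), and Psmd11, at 140.3 CPM at 9 h and 123 CPM at 2 h (ratio 1.14), were the other low ones. Neutrophil markers summed to 11177 CPM at 9 h and 5868 CPM at 2 h in this class, FAP markers to 3200.0 CPM at 9 h and 8739 CPM at 2 h, and dendritic markers to 216 CPM at 9 h and 681 CPM at 2 h. The part of these markers in the result was not tested.

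Dendritic-like cells had 7 of 29 measured members higher and 0 lower, against 14.8% of all measured genes higher and 16.2% lower, and a median log2 ratio of 0.36 against -0.01. The 7 were Psmb2 and 6 regulatory genes, Psmc4, Psmc5, Psmd2, Psmd7, Psmd11 and Psmd14 (this full list was written out after the values were seen). Psmd14 had 135 CPM at 9 h and 65.5 CPM at 2 h (ratio 2.07, 1.56 to 2.76), Psmc5 103 CPM at 9 h and 56.5 CPM at 2 h (ratio 1.82), and Psmd7 131 CPM at 9 h and 76.8 CPM at 2 h (ratio 1.70). Psmb7 (80.1 CPM at 9 h and 88.9 CPM at 2 h, ratio 0.901), Psmb1 (175 CPM at 9 h and 191 CPM at 2 h, ratio 0.914) and Psma7 (284 CPM at 9 h and 287 CPM at 2 h, ratio 0.991) had the lowest ratios, each with an interval that held 1. With cells thinned to 1000 UMIs, 11 members were higher and 3 lower in this class. Neutrophil markers summed to 3945 CPM at 9 h and 1410.2 CPM at 2 h in dendritic-like cells, and FAP markers to 1832 CPM at 9 h and 503 CPM at 2 h, and their part in the result was not tested.

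Monocyte-like cells had 3 of 31 measured members higher and 0 lower, beside 13.3% of all measured genes higher and 20.2% lower, a share of higher members near that of all genes. With cells thinned to 1000 UMIs, 4 were higher and 3 lower. The 3 were Psmb2 (175 CPM at 9 h and 113 CPM at 2 h, ratio 1.55), Psmd11 (142 CPM at 9 h and 91.4 CPM at 2 h, ratio 1.56) and Psmd7 (73.7 CPM at 9 h and 46.8 CPM at 2 h, ratio 1.57). Psma7, the most abundant member of these cells, had 295 CPM at 9 h and 427 CPM at 2 h, a ratio of 0.691 (0.616 to 0.774), and Psma5 had 63.6 CPM at 9 h and 88.4 CPM at 2 h (ratio 0.719, 0.559 to 0.927). Psmb1 had 154 CPM at 9 h and 197 CPM at 2 h (ratio 0.781, 0.663 to 0.921). Within the class the alpha genes summed to 1189.5 CPM at 9 h and 1320.1 CPM at 2 h, a ratio of 0.901 (0.848 to 0.958). Its ATPase genes summed to 384 CPM at 9 h and 299.5 CPM at 2 h, a ratio of 1.28 (1.14 to 1.45). By counting error alone the alpha genes were thus lower and the ATPase genes higher. TMM scaling moved the median of all genes in this class by 0.12 on the log2 scale, and gave the summed members a log2 ratio of 0.16 in place of 0.05. The alpha ratio was then 0.977 with an interval that held 1 (0.920 to 1.04), and the ATPase ratio 1.39 (1.23 to 1.57). Neutrophil markers, of which 11 of 12 were detected at 9 h and 12 at 2 h, summed to 7474 CPM at 9 h and 3888 CPM at 2 h in this class, and their part in the result was not tested.

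Neutrophil-like cells had 3 of 27 measured members higher and 3 lower, while 17.5% of all measured genes were higher and 22.3% lower. The share of members was thus below that of all genes in both directions. The 3 lower genes were Psma1, with 32.4 CPM at 9 h and 66.7 CPM at 2 h (ratio 0.485, 0.406 to 0.581), Psmd13, a lid subunit, with 15.5 CPM at 9 h and 31.4 CPM at 2 h (ratio 0.495, 0.381 to 0.645), and Psma7, with 31.9 CPM at 9 h and 49.0 CPM at 2 h (ratio 0.651, 0.535 to 0.793). Under TMM scaling Psma7 had a ratio of 0.696, short of the 1.5-fold limit. Psma1 was the most abundant member of the class at 2 h. The 3 higher genes were Psmb6 (24.2 CPM at 9 h and 14.0 CPM at 2 h, ratio 1.73), Psmc3 (18.3 CPM at 9 h and 11.4 CPM at 2 h, ratio 1.60) and Psmd7 (10.5 CPM at 9 h and 5.99 CPM at 2 h, ratio 1.75, 1.08 to 2.97; named after its values were seen). Psmd11 had 46.0 CPM at 9 h and 33.1 CPM at 2 h (ratio 1.39), and Psmd8, the most abundant member at 9 h, 50.5 CPM at 9 h and 44.5 CPM at 2 h (ratio 1.14). The alpha genes summed to 199 CPM at 9 h and 251 CPM at 2 h, a ratio of 0.792 (0.729 to 0.860). Most neutrophil-like cells of the libraries also lay in different clusters, so these ratios are in part ratios between clusters: 1479 of the 1632 cells at 2 h were in cluster 0, and 2954 of the 4318 cells at 9 h were in clusters 2 and 3, which held 22 cells at 2 h. Clusters 0 and 5 held at least 50 cells of each library. Pooled over these clusters, the ratio was 0.609 for Psma1 (0.468 to 0.786) and 0.460 for Psmd13 (0.297 to 0.694). It was 0.515 for Psma7 (0.369 to 0.709) and 0.778 for the alpha genes (0.689 to 0.878). Of the higher genes, Psmb6 had 1.90 (1.26 to 2.88), Psmd7 1.52 (0.757 to 3.02) and Psmc3 1.38 (0.840 to 2.27). These pooled ratios are still in part ratios between clusters. Cluster 5 held 966 cells at 9 h and 100 at 2 h, and cluster 0 held 381 cells at 9 h and 1479 at 2 h. Within cluster 0 alone the ratio of Psma1 was 0.697, with an interval that held 1 (0.456 to 1.03). There it was 0.492 for Psmd13 (0.229 to 0.940) and 0.599 for Psma7 (0.346 to 0.978). Cluster 5 gave 0.524 for Psma1 (0.271 to 1.11) and 0.392 for Psma7 (0.183 to 0.931). Psmd13 had 0.712 in cluster 5 (0.211 to 3.74), with 3 UMIs at 2 h. The summed members were at 734 CPM at 9 h and 775 CPM at 2 h in cluster 0 and at 744 CPM at 9 h and 796 CPM at 2 h in cluster 5.

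**Figure D4:**
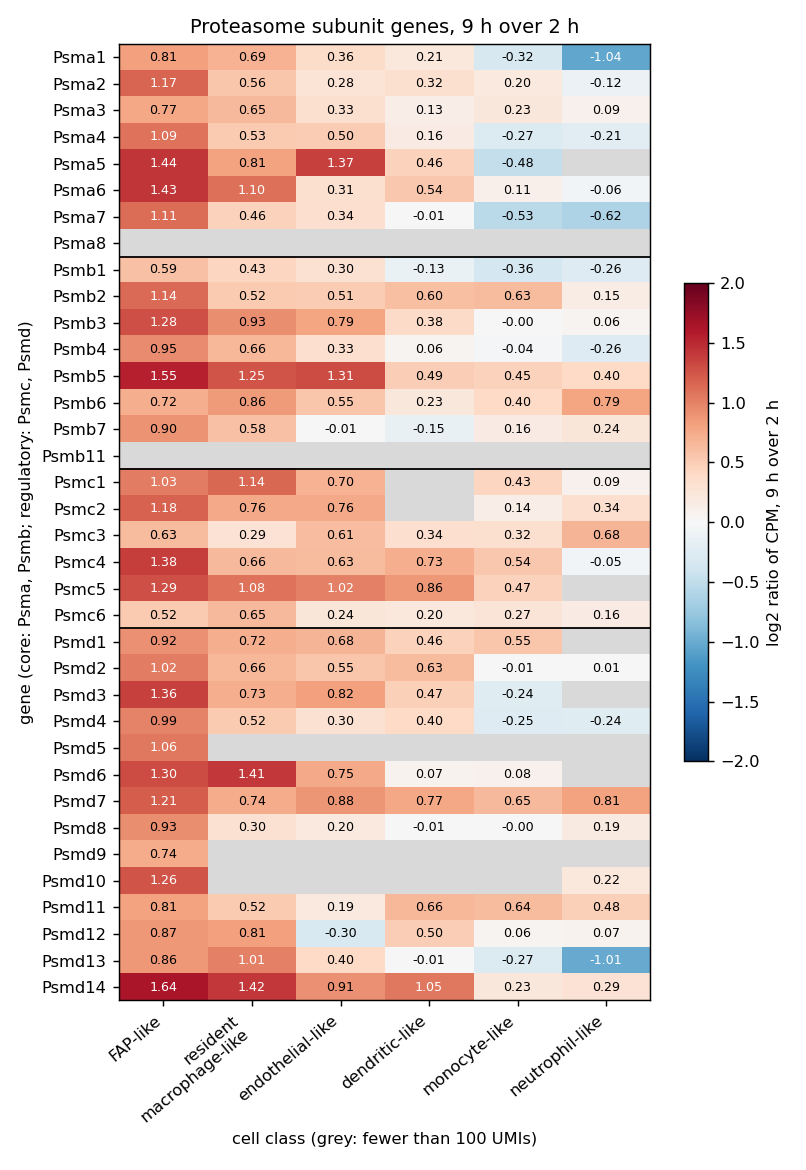
Log2 of the CPM ratio, 9 h over 2 h and without a pseudocount, for each member (down the page) in each compared class (across), with grey for members under 100 UMIs. FAP-like cells are red for all 34 measured members, Psmd7 is red in all 6 classes, and Psma1, Psma7 and Psmd13 are blue in neutrophil-like cells.

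Across the 6 classes, 24 members were measured everywhere and 9 of them had a ratio above 1 in each class: Psma3, Psmb2, Psmb5, Psmb6, Psmc3, Psmc6, Psmd7, Psmd11 and Psmd14. The same count over all genes was not made, so whether 9 of 24 is many cannot be read. In single classes, 43.8% (monocyte-like) to 53.7% (endothelial-like) of all measured genes had a ratio above 1. Psmd7 was the member with a ratio of 1.5 or more in all 6 classes. In neutrophil-like cells its ratio rested on 87 UMIs at 9 h and 21 at 2 h. Pooled over the neutrophil-like clusters 0 and 5, its interval held 1 (0.757 to 3.02). Psma3 had the highest level at both times in resident macrophage-like (340 CPM at 9 h and 216 CPM at 2 h), endothelial-like (255 CPM at 9 h and 203 CPM at 2 h) and dendritic-like cells (315 CPM at 9 h and 288 CPM at 2 h). The ATPase gene Psmc2 had the lowest measured level at both times in resident macrophage-like (60.7 CPM at 9 h and 35.9 CPM at 2 h), endothelial-like (50.3 CPM at 9 h and 29.6 CPM at 2 h) and monocyte-like cells (34.3 CPM at 9 h and 31.2 CPM at 2 h), and the lid gene Psmd12 in dendritic-like cells (55.3 CPM at 9 h and 39.2 CPM at 2 h). The chaperone genes Psmd5 and Psmd9 passed 100 UMIs in FAP-like cells alone, and Psmd10 in FAP-like and neutrophil-like cells. The highest mean log2 ratios (pseudocount 10 CPM) of members measured in all 6 were those of Psmb5 (0.81), Psmd14 (0.80) and Psmd7 (0.71). Psmc5 had a mean of 0.83 over 5 classes, without the neutrophil-like cells, where it was under 100 UMIs. The lowest were those of Psmb1 (0.09), Psma1 (0.12), Psma7 (0.13) and Psmd13 (0.17), each over 6 classes. Over the 12 points of class and library, the log2 CPM of a member was correlated with the mean of the other members at Pearson's r of 0.99 for Psmd2, Psmb4, Psma2 and Psma3, of 0.81 for Psma1 and of 0.55 for Psmd10, a description only, since the points share 2 libraries and the low neutrophil-like level.

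Neutrophil-like cells had far less proteasome mRNA per UMI than FAP-like cells in both libraries. The summed level was 767 CPM in neutrophil-like and 5197 CPM in FAP-like cells at 9 h, 6.77-fold lower (6.60 to 6.95), and 779 CPM in neutrophil-like and 2545 CPM in FAP-like cells at 2 h, 3.27-fold lower (3.14 to 3.40). Of 34 measured members 33 were lower at 9 h and 29 at 2 h, and 0 were higher. Of all genes, 65.9% were lower and 20.4% higher at 9 h, and 67.2% lower and 19.0% higher at 2 h, so most genes stood lower in neutrophil-like cells. The members' median log2 ratio was -2.35 at 9 h and -1.30 at 2 h, beside -0.78 and -0.82 over all genes.

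The gap differed from member to member. Psmd7 was at 10.5 CPM in neutrophil-like and 247 CPM in FAP-like cells at 9 h (23.6-fold lower), and at 5.99 CPM in neutrophil-like and 107 CPM in FAP-like cells at 2 h (17.8-fold lower). Psmd1, a scaffold of the base, was 20.1-fold lower at 9 h and 14.1-fold lower at 2 h, and Psmd3, of the lid, 20.1-fold and 12.1-fold lower. At the other end, Psmd10 was at 9.27 CPM in neutrophil-like and 13.8 CPM in FAP-like cells at 9 h (1.49-fold lower), and at 7.98 CPM in neutrophil-like and 5.79 CPM in FAP-like cells at 2 h (ratio 1.38, 0.869 to 2.12). Psma1 was at 66.7 CPM in neutrophil-like and 59.2 CPM in FAP-like cells at 2 h (ratio 1.13), and at 32.4 CPM in neutrophil-like and 104 CPM in FAP-like cells at 9 h (3.21-fold lower).

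The balance of regulatory to core transcripts differed between classes and, in 3 classes, between the 2 libraries beyond counting error. FAP-like cells had 0.817 regulatory UMIs per core UMI at 9 h and 0.827 at 2 h (9 h over 2 h 0.988, 0.965 to 1.01), and the interval of that quotient held 1 in endothelial-like (0.841 at 9 h and 0.814 at 2 h) and resident macrophage-like cells (0.763 at 9 h and 0.722 at 2 h) too. Dendritic-like cells had 0.701 at 9 h and 0.574 at 2 h (quotient 1.22, 1.12 to 1.34), neutrophil-like cells 0.751 at 9 h and 0.645 at 2 h (1.16, 1.06 to 1.28), and monocyte-like cells 0.594 at 9 h and 0.526 at 2 h (1.13, 1.05 to 1.22). In these 3 classes regulatory transcripts were the more numerous relative to core transcripts at 9 h. Most neutrophil-like cells of the libraries lay in different clusters. Within cluster 0 the balance was 0.713 at 9 h and 0.659 at 2 h. Cluster 5 had 0.764 at 9 h and 0.417 at 2 h, the latter from 119 proteasome UMIs. The quotient does not depend on scaling to the library total. Without Psma3 and Psmd11, the members with the most UMIs of each particle, it was 1.20 in dendritic-like, 1.14 in neutrophil-like and 1.12 in monocyte-like cells, and 0.969 in FAP-like cells, whose interval was then below 1 (0.945 to 0.994).

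Immunoproteasome subunits take the place of the 3 catalytic members when the core is assembled in cells exposed to interferon, and they change the peptides made for antigen presentation. Their share of each catalytic pair was lower at 9 h in all 18 combinations of pair and class, and in 14 of these the intervals did not overlap. A share is also lower where the partner is higher. None of the immunoproteasome genes measured in resident macrophage-like and dendritic-like cells was lower by 1.5-fold. Psmb9, under 100 UMIs in resident macrophage-like cells, was at 10.3 CPM at 9 h and 31.5 CPM at 2 h there. In that class the 3 together were at 128 CPM at 9 h and 190 CPM at 2 h, and their partners at 442 CPM at 9 h and 234 CPM at 2 h. In dendritic-like cells the 3 together were at 453 CPM at 9 h and 475 CPM at 2 h, and their partners at 395 CPM at 9 h and 337 CPM at 2 h. Psmb8, counted as a share of Psmb8 and Psmb5, was 11.3% at 9 h (10.4 to 12.2%) and 36.1% at 2 h (33.9 to 38.4%) in FAP-like cells. In endothelial-like cells that share was 20.8% at 9 h (15.8 to 26.5%) and 75.0% at 2 h (68.6 to 80.7%). Resident macrophage-like cells had 32.2% at 9 h and 59.5% at 2 h, monocyte-like cells 32.6% at 9 h and 62.8% at 2 h, and neutrophil-like cells 26.2% at 9 h and 49.4% at 2 h. Dendritic-like cells, which present antigen, kept the highest share at 9 h, 67.3% (62.4 to 71.9%), against 72.6% at 2 h (68.5 to 76.5%), with intervals that overlapped.

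In FAP-like cells the partners of each pair differed in opposite directions. Psmb8 was at 26.6 CPM at 9 h and 40.4 CPM at 2 h (1.52-fold lower), Psmb9 at 4.99 CPM at 9 h and 14.7 CPM at 2 h (2.95-fold lower), and Psmb10 at 13.7 CPM at 9 h and 30.4 CPM at 2 h (2.22-fold lower), while their partners Psmb5, Psmb6 and Psmb7 were higher. In endothelial-like cells Psmb8 was at 30.8 CPM at 9 h and 143 CPM at 2 h (4.63-fold lower, 3.34 to 6.52). For the Psmb9 and Psmb6 pair, the Psmb9 share was 2.93% at 9 h and 12.8% at 2 h in FAP-like cells. It was 3.79% at 9 h and 33.6% at 2 h in endothelial-like cells, 10.02% at 9 h and 36.1% at 2 h in monocyte-like cells, and, in neutrophil-like cells, 15.2% at 9 h against 57.4% at 2 h. For the Psmb10 and Psmb7 pair, the Psmb10 share was 12.3% at 9 h and 36.7% at 2 h in FAP-like cells and, in neutrophil-like cells, 7.28% at 9 h against 9.56% at 2 h, with intervals that overlapped.

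Psmb9 was at 5.14% of its pair at 9 h and 23.1% at 2 h in resident macrophage-like cells and at 35.5% at 9 h and 46.3% at 2 h in dendritic-like cells. Psmb10 was at 31.3% of its pair at 9 h and 49.5% at 2 h in resident macrophage-like, 45.7% at 9 h and 61.5% at 2 h in monocyte-like, 17.7% at 9 h and 48.1% at 2 h in endothelial-like, and 42.3% at 9 h and 45.4% at 2 h in dendritic-like cells. The 3 pairs together gave an immunoproteasome share of 8.75% at 9 h and 27.6% at 2 h in FAP-like cells. Within the FAP-like clusters at 9 h, that pooled share was 4.26% in cluster 1 (3.78 to 4.78%), 13.6% in cluster 12 and 19.1% in cluster 8 (17.4 to 20.8%), beside 24.9% in cluster 4 and 33.0% in cluster 7 at 2 h. Clusters 1 and 8 differed far more in this share than in their summed members.

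**Figure D5:**
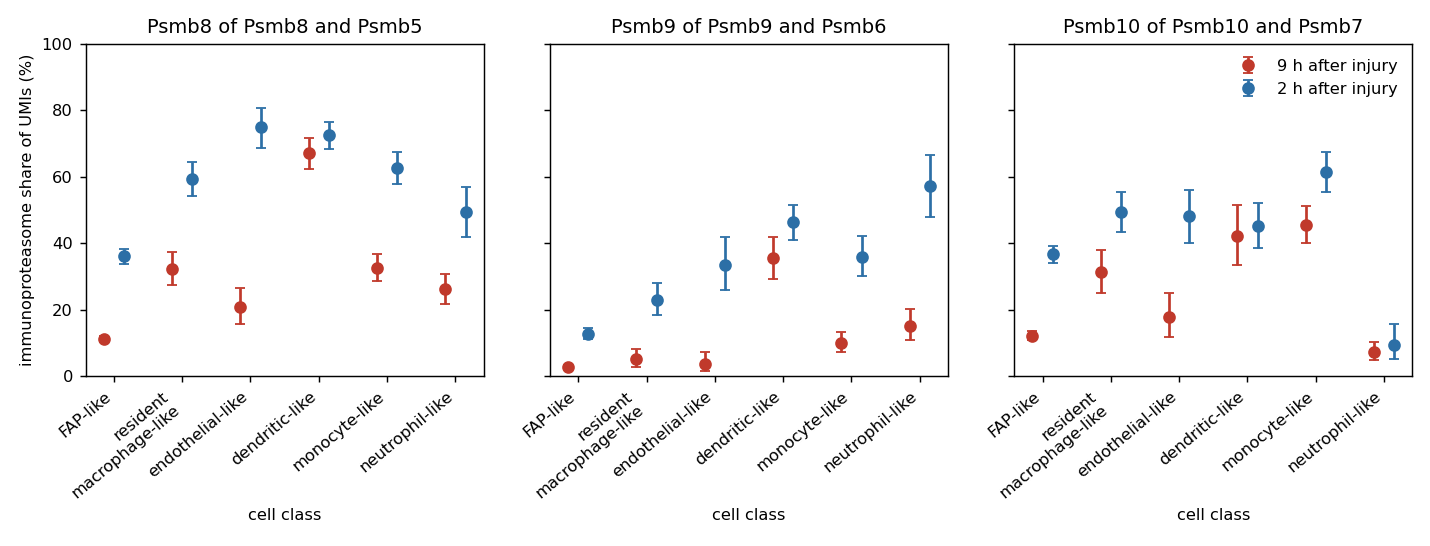
Share (%) of UMIs from the immunoproteasome gene in each catalytic pair, by cell class, at 9 h and at 2 h, with exact Clopper-Pearson 95% intervals. The 9 h point lies below the 2 h point in each of the 18 combinations, widest apart for Psmb8 in endothelial-like cells (20.8% and 75.0%).

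Genes that build or serve the proteasome were read from lists of its pathway. Of all measured genes in FAP-like cells 27.9% were higher and 30.2% lower, the shares to set beside the counts of each list. In FAP-like cells all 5 assembly chaperone genes were higher at 9 h (median log2 ratio 0.98): Psmg3 had 30.1 CPM at 9 h and 7.74 CPM at 2 h (ratio 3.88), Psmg1 27.9 CPM at 9 h and 8.37 CPM at 2 h (ratio 3.33), and Pomp, which guides beta ring maturation, 207 CPM at 9 h and 111 CPM at 2 h (ratio 1.86). Pomp was also higher in endothelial-like (302.6 CPM at 9 h and 168 CPM at 2 h, ratio 1.80) and neutrophil-like cells (222 CPM at 9 h and 142 CPM at 2 h, ratio 1.56), where no other assembly gene was measured. Of 6 other regulatory parts and partners 5 were higher in FAP-like cells: the ubiquitin receptor Adrm1 (116 CPM at 9 h and 40.5 CPM at 2 h, ratio 2.85), the deubiquitinases Usp14 (ratio 2.73) and Uchl5 (ratio 2.44), Ube3c (ratio 2.03) and Txnl1 (ratio 1.95). The exception was Sem1, a small lid subunit, with 369 CPM at 9 h and 275 CPM at 2 h (ratio 1.34).

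Of the 5 genes for proteasome activators and an inhibitor, 1 was higher and 1 lower in FAP-like cells (median log2 ratio -0.21). Psme3, the nuclear activator, had 109.6 CPM at 9 h and 33.0 CPM at 2 h in FAP-like cells (ratio 3.32, 3.02 to 3.66), 57.9 CPM at 9 h and 18.9 CPM at 2 h in endothelial-like cells (ratio 3.07) and 77.5 CPM at 9 h and 35.9 CPM at 2 h in resident macrophage-like cells (ratio 2.16). The interferon-inducible activator Psme1 had 46.6 CPM at 9 h and 83.1 CPM at 2 h in FAP-like cells (1.78-fold lower), and was 2.03-fold lower in endothelial-like cells. Of 6 shuttle factor genes, whose products bring ubiquitinated proteins to the proteasome, 3 were higher in FAP-like cells, with Ubqln4 at 58.7 CPM at 9 h and 12.3 CPM at 2 h (ratio 4.76, 4.09 to 5.57), Rad23b at a ratio of 2.03 and Ubqln1 at 1.83. Of 6 genes of ubiquitin activation and the p97 segregase 2 were higher, Nploc4 (ratio 1.77) and Nsfl1c (ratio 1.67), a share near that of all genes.

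Of 8 genes for regulators of proteasome transcription, 0 were higher in FAP-like cells and 1, Nfe2l2, was lower, with 87.0 CPM at 9 h and 132 CPM at 2 h (1.52-fold lower). Nfe2l1 had 106 CPM at 9 h and 95.4 CPM at 2 h (ratio 1.12, 1.04 to 1.19). Of 9 heat shock and other proteotoxic stress genes, 7 were lower in FAP-like cells (median log2 ratio -1.13). In endothelial-like cells 8 were lower, beside 19.5% of all measured genes, and in resident macrophage-like cells 7, beside 18.8%. In dendritic-like cells 0 were lower and 1 was higher (median log2 ratio 0.02), beside 16.2% and 14.8% of all genes. Dnajb1, a chaperone partner of Hsp70, had 101 CPM at 9 h and 697 CPM at 2 h in FAP-like cells (6.87-fold lower), and the co-chaperone Bag3 111 CPM at 9 h and 461 CPM at 2 h (4.17-fold lower). In monocyte-like cells 0 of the 9 were lower and 2 were higher, Hsph1 (ratio 1.72) and Hspa1b (ratio 1.58). Of all measured genes in that class, 20.2% were lower and 13.3% higher. In neutrophil-like cells 7 were measured, 2 were lower and 1, the autophagy receptor gene Sqstm1, was higher (363 CPM at 9 h and 174 CPM at 2 h, ratio 2.09). These counts were near the shares of all measured genes in neutrophil-like cells, 22.3% lower and 17.5% higher.

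The members lie on 16 chromosomes, and just 1 pair, Psmb5 and Psmb11 on chromosome 14, stands side by side (54614119 to 54618022 on the minus strand and 54621433 to 54629556 on the plus strand, mm10). Psmd14 lies on chromosome 2 (61711694 to 61800376, plus strand). Another counted gene overlaps Psma2 and Psmd12 on the same strand and 10 members on the other strand, among them Psmd13, and Psmb5, Psmb6 and Psmb7 have named pseudogenes, so some of their reads may have been shared or set aside in counting.

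Promoter windows of RefSeq on GRCm38.p6, from 250 bases before to 50 bases after the start of transcription, were found for 29 members. The motifs below were searched on both strands. They were TGACNNNGC, the core of the antioxidant response element bound by the Nfe2l1 and Nfe2l2 factors, CCAAT, and CCGGAAG, a motif of ETS factors. The first was in 5 of the 29 windows (17.2%) and in 14.0% of the windows of 27025 genes. CCAAT was in 12 of 29 (41.4%) and 41.1% of all genes, so the shares were close to each other in both cases. By particle, CCAAT was in 7 of 12 core genes (58.3%) and 5 of 17 regulatory genes (29.4%). CCGGAAG was in 10 of 29 member windows (34.5%) and in 9.93% of all genes, and it was divided between the particles, with 1 of 12 core genes (8.33%) and 9 of 17 regulatory genes (52.9%). No member window held matches of different motifs that overlapped. A match says that these letters are present, not that a factor binds there.

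The windows with TGACNNNGC are shown for 4 of the 5 members that hold it, in order of the mean log2 ratio over the compared classes. The other is Psmd12, with the lowest of these means (0.28, against 0.30 for Psmc6). The mean of Psmd9 rests on FAP-like cells alone. Psmb5 had one of the highest ratios in FAP-like cells and Psmc6 the lowest. Each stretch runs 5′ to 3′ on the gene's own strand with the match in capitals. The stretches are chr14:54618009-54618067 for Psmb5 (minus strand), chr5:123228134-123228189 for Psmd9, chr11:70525323-70525356 for Psmb6 and chr14:45329574-45329630 for Psmc6 (plus strand), with the match 47, 31, 9 and 227 bases before the start. In Psmc6 the match is on the opposite strand.
Psmb5: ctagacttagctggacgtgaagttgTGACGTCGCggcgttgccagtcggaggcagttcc
Psmd9: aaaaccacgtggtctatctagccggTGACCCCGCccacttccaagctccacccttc
Psmb6: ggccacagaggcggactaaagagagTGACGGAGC
Psmc6: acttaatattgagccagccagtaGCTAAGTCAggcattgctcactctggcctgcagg

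The stretches below show the ETS motif in regulatory genes, and were chosen after the counts above were seen. They are chr14:14120959-14121015 for Psmd6 (minus strand), chr12:100110149-100110201 for Psmc1 and chr11:80428579-80428614 for Psmd11 (plus strand), with the match 45, 28 and 11 bases before the start. In Psmc1 and Psmd11 the match reads on the opposite strand.
Psmd6: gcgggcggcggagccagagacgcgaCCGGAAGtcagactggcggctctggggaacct
Psmc1: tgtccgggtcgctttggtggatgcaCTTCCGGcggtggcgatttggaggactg
Psmd11: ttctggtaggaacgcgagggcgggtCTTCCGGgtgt
Of these 3 genes, Psmd11 and Psmc1 had ratios of 1.75 and 2.04 in FAP-like cells, and Psmd6 had 2.46.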

How the data were processed

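The deposited values are raw UMI counts for each gene in each barcode. The submitters' processing notes name Cell Ranger 5.0.0 and mm10. The annotation release is not given in these sources. There were 8790 barcodes at 9 h and 5729 at 2 h. Barcodes with under 200 genes or 500 UMIs, or a mitochondrial share over 20%, were removed. Doublet calling with Scrublet marked none of the 9 h cells and 6 of the 2 h cells (0.122%), too few to be a working call, so none was removed. Cells of both libraries were clustered together without batch correction and without the members: 2000 variable genes, 30 components, 15 neighbours and Leiden resolution 1 in Scanpy 1.11.5. Classes were named from 16 marker lists. UMIs were summed per class and library. Poisson, conditional binomial and Clopper-Pearson intervals treat each UMI as independent, so they leave out the spread between cells. The ratio step was run on simulated Poisson counts with known folds. Such counts hold no spread between cells or libraries, so this run could not test the intervals against that spread. Named in each class are the 3 highest and 3 lowest log2 ratios (pseudocount 10 CPM), the highest and lowest levels, and the catalytic pairs. The members and gene lists were chosen with earlier results of these data known. Alternative scalings used edgeR 4.0.16.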

Additional observations from a re-analysis of the deposited data

Results flagged for a closer look

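In neutrophil-like cells 3 members were lower at 9 h while the same genes were higher in at least 1 other class, and this difference between classes was not tested. The 3 were among 27 measured members, a smaller share than the 22.3% of all measured genes that were lower. In FAP-like cells 33 members were higher, so nearly any member lower in neutrophil-like cells would show this difference. Psma1 had a ratio of 0.485 in neutrophil-like cells and 1.76 in FAP-like cells. Psmd13 had a ratio of 0.495 in neutrophil-like cells and 1.82 in FAP-like cells. Psma7 had a ratio of 0.651 in neutrophil-like cells and 2.16 in FAP-like cells, and with TMM scaling its neutrophil-like ratio was 0.696, no longer past 1.5-fold.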

How the results depend on the processing

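No paired analysis was possible because there was 1 library per time and the labels carry no replicate numbers. The summed members stayed higher at 9 h in FAP-like, resident macrophage-like, endothelial-like and dendritic-like cells under every alternative run, with ratios of 1.99 to 2.20, 1.63 to 1.82, 1.34 to 1.46 and 1.19 to 1.32. Monocyte-like cells ranged over 1.01 to 1.12 and neutrophil-like cells over 0.954 to 1.05. On the log2 scale, TMM gave 0.16 in monocyte-like and 0.075 in neutrophil-like cells (0.05 and -0.02 as reported), and median-of-ratios factors gave 0.15 in monocyte-like and 0.068 in neutrophil-like cells. Totals without mitochondrial, ribosomal protein and haemoglobin genes gave 1.14 in FAP-like and 0.25 in dendritic-like cells, and -3.02 at 9 h and -1.86 at 2 h for neutrophil-like over FAP-like cells. Equal weight for each cell gave 0.79 in resident macrophage-like cells. Thinning gave 0.995 in FAP-like, 0.85 in resident macrophage-like and 0.40 in dendritic-like cells, and clustering at resolution 2 gave 0.86 in resident macrophage-like cells. The causes were not tested. Members higher at 9 h numbered 19 to 34 in FAP-like cells over 13 alternatives, 19 being those past 2-fold. The counts of higher members ran over 7 to 29 in resident macrophage-like (21 as reported), 3 to 22 in endothelial-like (13), 1 to 16 in dendritic-like (7), 0 to 9 in monocyte-like (3) and 0 to 6 in neutrophil-like cells (3), with each lowest count at a limit of 2-fold and each highest at a limit below 1.5-fold. Lower members, 0 as reported in monocyte-like and dendritic-like cells, numbered 3 in each with thinned cells. In neutrophil-like cells 2 were lower under TMM and median-of-ratios factors in place of 3. The ratios of single genes in neutrophil-like clusters and under TMM were also computed after seeing the data. Repeats of the regulatory to core quotient and of the immunoproteasome shares at a mitochondrial limit of 10%, at the other resolutions, without the cells of highest doublet score (573 at 9 h and 225 at 2 h) and in shared clusters were chosen after seeing the data, and moved no value by more than its interval. Shared clusters could not be used for FAP-like cells, nor resolution 0.5 for resident macrophage-like and dendritic-like cells, which were then unnamed. With 1 library per time, library effects and time cannot be told apart.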
